A study of Cynodon dactylon with 10 samples.

Results

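Heated and droughted leaves of bermudagrass (Cynodon dactylon), a warm-season turf and forage grass, were compared directly with each other, contig by contig. The comparison took the 2 heat libraries against the 2 drought libraries, and it covered every contig with at least 1 RPKM in 2 or more of the 10 libraries of the series. RPKM is the density of reads on a contig, corrected for contig length and for the size of the library. That rule kept 26884 of the 28456 contigs of the table. Of these, 2112 stayed under 1 RPKM in all 4 libraries compared, where the 1 RPKM added before taking logs leaves little room for a 2-fold difference. None of them was called at 2-fold. Contigs just inside the limit, with a second highest value of 1 to 1.04 RPKM, numbered 44, and 38 lay just outside it at 0.95 to 0.99 RPKM.

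All plants were wild type and were grown as seedlings to 3 weeks of age before 7 days of treatment. Heat plants were held at 42 °C, and drought plants received no water. The remaining groups had 7 days under water (submergence), 7 days with 400 mM NaCl (salt), or no stress (control), with 2 libraries per group. The labels do not say how heated plants were watered, at which temperature the droughted plants stood, how many plants went into a library, or whether replicate libraries stem from different plants. The p-values rest on the spread between replicate libraries, and that spread may be technical.

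Heat and drought are textbook examples of stresses that often come together in the field yet act on the leaf in different ways. High temperature unfolds proteins and loosens membranes, and plants answer it chiefly through heat shock transcription factors and the chaperones they switch on. Loss of water acts largely through abscisic acid, the hormone that closes stomata, and through dehydrins, other late embryogenesis abundant proteins and enzymes that make protective solutes. The contigs carry assembly identifiers and no gene names, so none of them could be assigned to these pathways, and the leaf label was not checked against marker genes. In RNA from whole leaves, a lower share of a cell type and less RNA per cell cannot be told apart.

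The libraries held 759928 and 761476 RPKM in heat, against 767581 and 764535 RPKM in drought. Read totals are not known. Relative to control replicate 1, the depth read from steps among low values was 0.923 and 0.789 in heat and 0.949 and 0.921 in drought, so heat replicate 2 was the shallowest of the 4. The root mean square difference in log2(scaled RPKM + 1) was 0.916 to 0.924 between heat and drought libraries, against 0.197 between the 2 heat libraries and 0.225 between the 2 drought libraries. From the control, heat libraries lay 1.19 away in every pairing and drought libraries lay 0.847 to 0.857 away.

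Heated leaves differed from droughted leaves in 18177 of the 26884 contigs tested, 67.6%, at an adjusted p under 0.05 (limma, Benjamini-Hochberg). Most of these differences were small: 70.6% of the called contigs differed by less than 2-fold. At least 2-fold, 2169 contigs were higher in heat, 8.07% of those tested, and 3182 were lower, 11.8%. The tilt towards lower levels in heat was steeper among large differences, with 47 contigs at least 8-fold higher (0.175%) and 249 at least 8-fold lower (0.926%). The median log2 difference was 0, the 5th percentile was -1.61 and the 95th percentile 1.21.

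The 2-fold balance rested on the scaling of the libraries, while the 8-fold balance pointed the same way under each scaling tried. With values as deposited, 2914 contigs were at least 2-fold higher in heat and 2630 lower, so 52.6% of them were higher, against 40.5% with scaled values. At 8-fold, values as deposited gave 56 higher and 209 lower. The counts also rest on the 1 RPKM added before taking logs: with 5 RPKM added, 934 contigs were at least 2-fold higher in heat and 1806 lower. When the 2-fold size was itself tested, 955 were higher and 2002 lower.

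**Figure D1:**
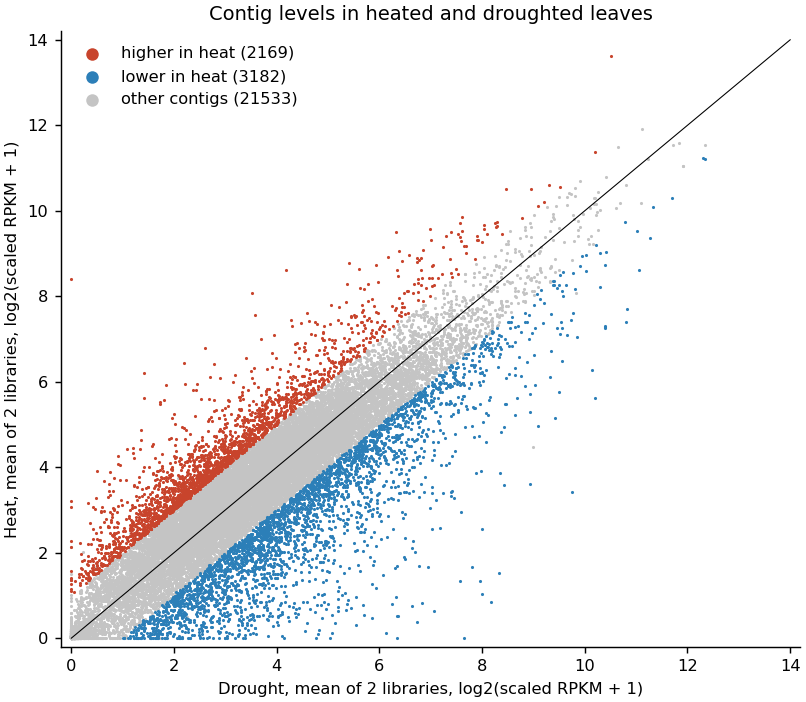
Mean level of each of the 26884 contigs in heated leaves (vertical axis) against droughted leaves (horizontal axis), both as log2(scaled RPKM + 1), with the line of equal levels. The 2169 contigs at least 2-fold higher in heat lie above the line and the 3182 lower ones below it, where more points lie far from the line.

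Many contigs had similar levels under both stresses. This was read only over the 24485 contigs with at least 1 RPKM in 2 or more of the 4 libraries compared, since contigs near 0 in all 4 give a difference near 0 by construction. For 16094 of them, 65.7%, the 95% interval of the difference in limma lay within 2-fold either way, and for 6620, 27.0%, it lay within 0.5 on the log2 scale. Of the 6523 that were not called, 6074 had an interval within 2-fold and 449 had a wider one, for which these libraries do not show whether the levels differ. The added 1 RPKM narrows these intervals for low contigs. Replicates set this precision. For contigs averaging 100 RPKM or more, replicate libraries differed with a robust SD of 0.0361 in heat and 0.0549 in drought on the log2 scale. Over all 26884 contigs tested, 0.283% in heat and 0.521% in drought differed at least 2-fold between the 2 libraries of the group. These shares include the low contigs, which can hardly differ 2-fold once 1 RPKM is added.

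The share of contigs lower in heat was larger among abundant contigs than among scarce ones. Among contigs with a mean of 50 to 500 RPKM over the 10 libraries, 578 of 2653 were at least 2-fold lower in heat, 21.8%, and 210 were higher, 7.92%. Among the 148 contigs of 500 RPKM or more, 41 were lower, 27.7%, and 19 higher, 12.8%. Among contigs with a mean under 5 RPKM, 505 of 6785 were lower, 7.44%, and 549 higher, 8.09%. The 17298 contigs between 5 and 50 RPKM lay between these, with 2058 lower and 1391 higher. With values as deposited, lower contigs still outnumbered higher ones at 50 to 500 RPKM, 456 against 268, and at 500 RPKM or more, 34 against 22, but 1926 were higher and 1714 lower at 5 to 50 RPKM, and 698 higher and 426 lower under 5 RPKM. The added 1 RPKM understates the differences of scarce contigs, and the standard error was larger for them, with a median of 0.143 under 5 RPKM and 0.0423 at 50 to 500 RPKM.

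**Figure D2:**
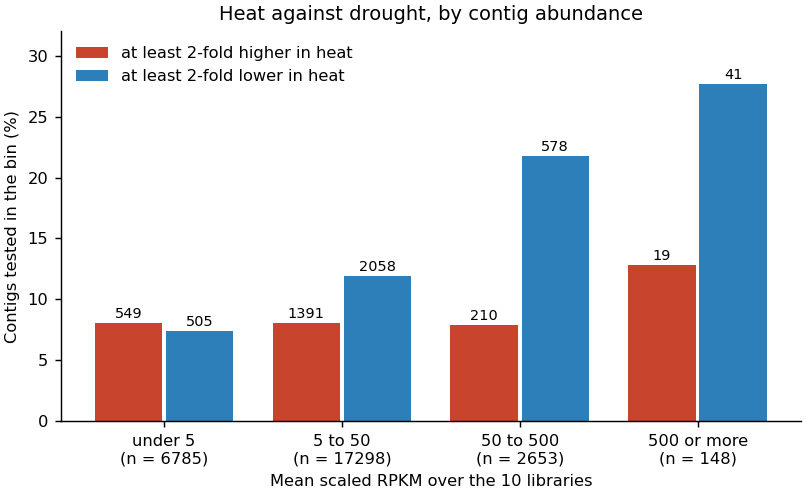
Share of the contigs tested (vertical axis, percent) that were at least 2-fold higher or lower in heat than in drought, by mean scaled RPKM over the 10 libraries (horizontal axis), with the number of contigs above each bar. The share lower in heat goes up with abundance, from 7.44% under 5 RPKM to 27.7% at 500 RPKM or more.

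The most abundant contigs held similar shares of all RPKM in heated and droughted leaves, but only part of these contigs were shared. The 100 most abundant contigs of each library held 17.7% ± 0.0115 of all RPKM in heat and 17.2% ± 0.530 in drought (SD, n = 2 each), and 25.05% ± 0.231 in the control. The difference between heat and drought gave p = 0.333 in a two-sided exact permutation test, the smallest p that 2 libraries against 2 allow. Of the 100 contigs most abundant in heat and the 100 most abundant in drought, by group mean, 54 were shared. The 46 only in the heat list had a median of 754 scaled RPKM in heat and 343 in drought, and 29 of them were at least 2-fold higher in heat. The 46 only in the drought list had a median of 287 in heat and 872 in drought, and 38 of them were at least 2-fold lower in heat. These lists were chosen by level in the same libraries, so their counts are a description.

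The single most abundant contig of heated leaves had 13352 and 13553 RPKM in heat, against 1435 and 1374 RPKM in drought. Submerged leaves had 3504 and 3445 RPKM and salt-treated leaves 2350 and 2325 RPKM, and the control level of 1429 and 1384 RPKM lay between the 2 drought values. Heat thus stood apart in both libraries, with no overlap with any other group. Its log2 difference between heat and drought was 3.10 ± 0.04 (SE, adjusted p = 7.10e-10, limma). This contig belongs to comp52227_c0, a subcomponent of the assembly. Identifiers that agree up to the last number mark contigs of one subcomponent, which usually are variants of one gene or near copies. Reads may be split among them by the counting, so the values of single contigs within a subcomponent are uncertain.

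comp52227_c0_seq2, a second contig of that subcomponent, had the largest difference of all contigs called. It had 342 and 383 RPKM in heat and was listed at 0 in both drought libraries. It was also listed at 0 in both submergence libraries, had 0 and 0.69 RPKM in salt and was listed at 0 in both control libraries, so no fold is given. All 5 contigs of comp52227_c0 were called higher in heat than in drought, 3 of them by at least 2-fold. Together they summed to 15717 and 16062 RPKM in heat, against 2538 and 2386 RPKM in drought and 2777 and 2708 RPKM in the control. comp52227_c0_seq2 made up 2.18% and 2.38% of that sum in heat.

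comp47621_c0_seq1 had the next largest difference among contigs higher in heat. Its level was 85.6 and 70.4 RPKM in heat, against 1.62 and 1.57 RPKM in drought. It reached 42.3 and 40.4 RPKM in submergence, had 0.17 RPKM in each salt library and was listed at 0 in both control libraries. Heat was thus highest and submergence next, with drought low but above the control in both libraries. The log2 difference between heat and drought was 4.78 ± 0.11 (SE, adjusted p = 7.04e-09, limma), and it ran from 3.54 with 5 RPKM added to 5.36 with 0.1 RPKM added. The other contig of its subcomponent followed the same order, with 63.5 and 66.0 RPKM in heat against 4.31 RPKM in each drought library.

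comp54948_c0_seq7 had the largest difference among contigs lower in heat. It was listed at 0 in both heat libraries, against 183 and 202 RPKM in drought. Submerged leaves had 77.9 and 102 RPKM, salt-treated leaves 602 and 474 RPKM, and control leaves 758 and 797 RPKM. Drought was thus already below the control in both libraries, and heat was lower still, so no fold is given.

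comp53746_c2_seq9, the only contig tested from its subcomponent, was next. It had 0.79 and 0.93 RPKM in heat, against 274 and 280 RPKM in drought. The levels were 50.4 and 54.4 RPKM in submergence, 1090 and 1125 RPKM in salt and 1169 and 1155 RPKM in the control. None of the 5 groups overlapped another, and salt lay just under the control. The log2 difference was -7.33 ± 0.04 (SE, adjusted p = 1.49e-11, limma), and it was -5.66 with 5 RPKM added and -8.32 with 0.1 RPKM added.

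**Figure D3:**
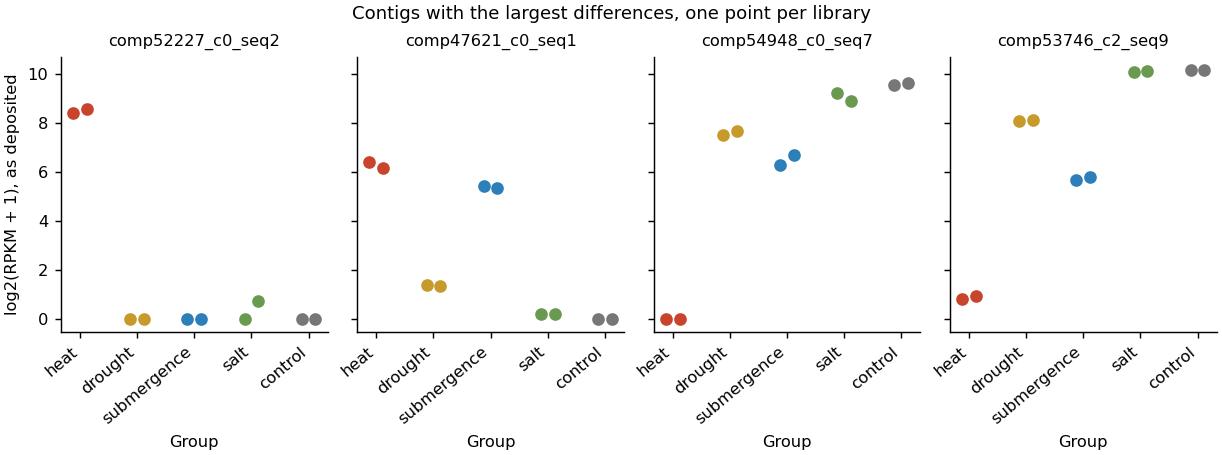
Deposited level of the 4 contigs with the largest differences, as log2(RPKM + 1) on the vertical axis, with 1 point per library in each group. In comp52227_c0_seq2 and comp47621_c0_seq1 both heat libraries lie above both drought libraries, and in comp54948_c0_seq7 and comp53746_c2_seq9 both lie below them.

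The 20 largest differences each way spanned log2 differences of 3.41 and over in contigs higher in heat, and of -5.38 and beyond in contigs lower in heat. The 20 higher in heat had a median of 60.5 scaled RPKM in heat and 3.10 in drought, with 6.97 in submergence, 1.55 in salt and 1.79 in the control. The 20 lower in heat had a median of 0.761 in heat and 123 in drought, with 7.48 in submergence, 226 in salt and 156 in the control. Contigs of the same subcomponent were among them, since the 20 higher came from 19 subcomponents and the 20 lower from 18.

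The contigs of comp54948_c0 differed in opposite directions between heat and drought. It holds 10 contigs, of which 3 were at least 2-fold higher in heat, 5 at least 2-fold lower and 2 called with smaller differences. The contig most abundant in heat had 1537 and 1605 RPKM there, against 354 and 324 RPKM in drought, a log2 difference of 2.05 ± 0.05 (SE, adjusted p = 1.54e-08, limma). The contig most abundant in the control had 74.6 and 80.5 RPKM in heat, against 190 and 192 RPKM in drought, a log2 difference of -1.45 ± 0.04 (SE, adjusted p = 2.78e-08, limma). In the control these 2 contigs had 2862 and 2924 RPKM and 4407 and 4633 RPKM. The 10 contigs summed to 3930 and 4057 RPKM in heat, 2194 and 2123 RPKM in drought and 25271 and 26120 RPKM in the control. The sum was therefore lower under both stresses than in the control in every library, while the contigs that made it up differed between them.

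**Figure D4:**
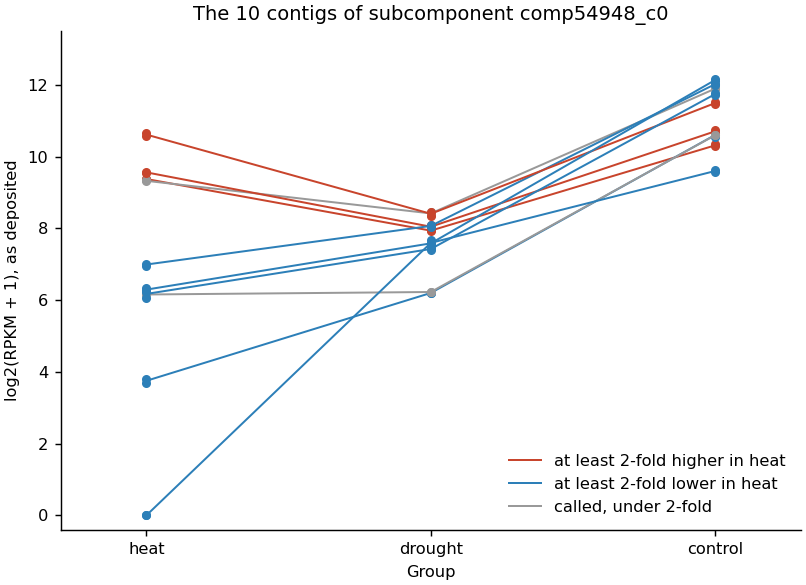
Levels of the 10 contigs of comp54948_c0 in heat, drought and control as log2(RPKM + 1), with points for the 2 libraries of each group and lines through the group means. The 10 contigs lie close together in drought and spread widely in heat, where 1 is listed at 0 and another reaches 1605 RPKM.

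Opposed differences within a subcomponent were then counted over the whole table. Of 18232 subcomponents with a tested contig, 4876 had 2 or more, and 815 of these held 2 or more contigs that differed at least 2-fold. In 461 of the 815 the 2-fold differences were all lower in heat, in 256 all higher, and in 98, 12.02%, they went both ways. For 76 of the 98, the summed level differed by less than 2-fold between heat and drought. The leading contig was also compared. Of 2754 subcomponents with at least 20 RPKM in each of the 4 libraries, 2399 had the same most abundant contig in both libraries of each group. In the remainder it changed between replicate libraries of heat, drought or both, and these were left out. In 304 of the 2399, 12.7%, the leading contig of heat differed from that of drought. Because reads may be split within a subcomponent, these counts describe the deposited values and were not tested.

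For most differing contigs the control level was nearer to drought than to heat, though often outside the range between them. Drought and heat were each set against the same control libraries, and both contribute to the difference that chose the contigs, so the values that follow are a description. Over all contigs tested, heat raised 12.2% and lowered 15.8% at least 2-fold against the control, and drought raised 7.11% and lowered 8.03%. Contigs lower in heat had a median of 4.81 scaled RPKM in heat and 19.3 in drought, with 18.1 in the control. The control was nearer to drought than to heat in 2520 of these 3182 contigs, 79.2%. It lay above both in 1538 of them, 48.3%, between them in 1390, 43.7%, and below both in 254, 7.98%. Contigs higher in heat had a median of 15.7 scaled RPKM in heat and 5.20 in drought, with 5.86 in the control, and the control was nearer to drought in 1602 of 2169, 73.9%. In these 2169 the control lay below both in 912, 42.05%, between them in 1049, 48.4%, and above both in 208, 9.59%. Under the other scalings the shares nearer to drought were 76.2% to 80.3% for contigs lower in heat and 71.6% to 79.2% for those higher. The same share over all contigs was not computed. As whole libraries, drought lay nearer to the control than heat did, 0.847 to 0.857 against 1.19 in root mean square difference.

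The largest classes had a heat level away from the control beside a drought level near it. In 1747 of the 3182 contigs lower in heat, 54.9%, the heat mean was at least 2-fold below the control and the drought mean within 2-fold of it. Their median was 4.397 scaled RPKM in heat and 17.8 in drought, against 20.7 in the control. In 1042 of the 2169 contigs higher in heat, 48.0%, the heat mean was at least 2-fold above the control and the drought mean within 2-fold of it, with medians of 17.4 in heat, 5.59 in drought and 4.86 in the control. The reverse pattern, with heat within 2-fold of the control and drought beyond it, was seen in 370 of the contigs lower in heat, where drought lay above, and in 294 of those higher in heat, where drought lay below. The 370 had medians of 7.81 in heat, 29.8 in drought and 7.88 in the control.

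Shared shifts of unequal size made up smaller classes. In 413 contigs lower in heat both stresses lay at least 2-fold below the control, with medians of 1.05 scaled RPKM in heat, 7.43 in drought and 25.6 in the control. In 225 contigs higher in heat both lay at least 2-fold above it, with medians of 48.9 in heat, 14.6 in drought and 3.34 in the control. In 78 contigs both lay above the control but drought was the higher, with medians of 19.2 in heat, 62.7 in drought and 3.15 in the control, and in 42 both lay below it but drought was the lower. A further 550 contigs higher in heat and 495 lower in heat had both stresses within 2-fold of the control, but on opposite sides of it. In the 550, heat lay above the control and drought below it, with median log2 differences from the control of 0.668 and -0.568. In the 495, heat lay below and drought above, with medians of -0.718 and 0.533.

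**Figure D5:**
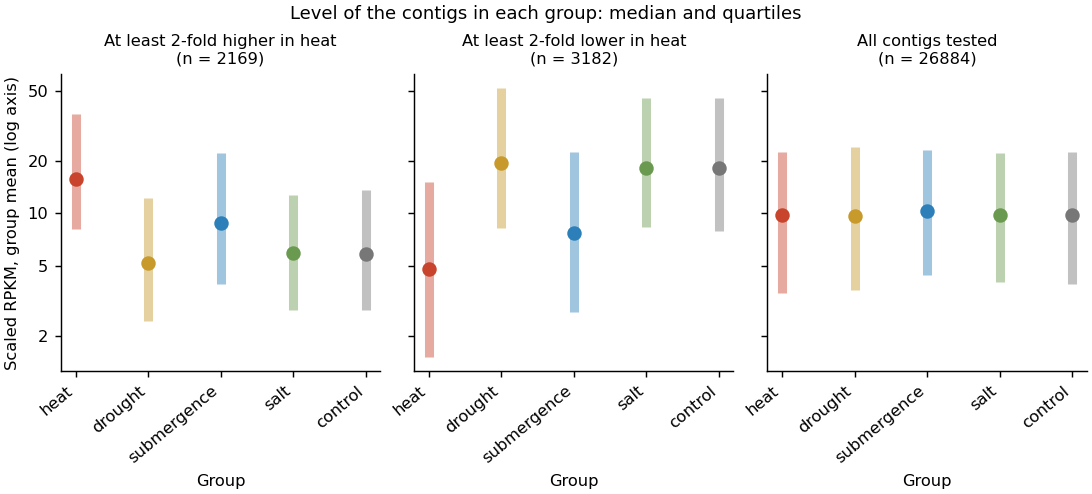
Median (points) and quartiles (bars) of group mean levels, in scaled RPKM on a log axis, for contigs at least 2-fold higher in heat, at least 2-fold lower in heat, and all contigs tested. In the contigs lower in heat, heat (4.81) and submergence (7.72) have low medians beside drought (19.3), salt (18.2) and control (18.1).

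More contigs were near 0 in heat but present in drought than the other way round. Contigs with at least 5 RPKM in both drought libraries and under 0.5 RPKM in both heat libraries numbered 71, and 6 showed the reverse. The 71 had a median of 0.185 RPKM in heat and 9.35 RPKM in drought, and 15.8 RPKM in the control. Of them, 12 were listed at 0 in both heat libraries, and 58 had at least 5 RPKM in both control libraries. Submerged leaves had at least 5 RPKM in both libraries in 26 of the 71, and salt-treated leaves in 61, with medians of 3.215 and 17.6 RPKM. Such levels were common. Over all contigs tested the lower quartile and median were 4.44 and 10.3 scaled RPKM in submergence and 4.06 and 9.75 in salt. In the control they were 3.95 and 9.79. The share of all contigs with at least 5 RPKM in both libraries of a group was not counted, so these counts are a description. The 6 found in heat had a median of 8.70 RPKM there and 0.125 RPKM in drought, and none had 5 RPKM in both control libraries, where 4 were under 0.5 RPKM in both. The part of the lower depth of heat replicate 2 in these counts was not tested. Over the whole table, contigs listed at 0 numbered 2886.5 ± 53.0 in heat and 2840 ± 39.6 in drought (SD, n = 2 each, p = 0.667, two-sided exact permutation test).

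Submergence against control shares no library with heat against drought, although all groups share 1 scaling and 1 estimate of the spread. Among the 3182 contigs lower in heat, submergence lowered 1618 at least 2-fold, 50.8%, and raised 182, 5.72%. Over all contigs tested submergence lowered 16.0% and raised 16.5%. Among the 2169 contigs higher in heat it raised 592, 27.3%, and lowered 204, 9.41%. The contigs lower in heat held 37.7% of all contigs lowered by submergence, and those higher in heat held 13.4% of all contigs raised by it. The median log2 change under submergence was -1.03 for contigs lower in heat and 0.40 for contigs higher in heat, beside 0.10 for all contigs.

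Lowering by submergence was commoner among contigs lower in heat than among all contigs at each abundance below 500 RPKM. Of the contigs lower in heat, submergence lowered 42.4% with a mean under 5 RPKM, where it lowered 10.01% of all contigs of that abundance. It lowered 50.1% at 5 to 50 RPKM, beside 15.7% of all, and 60.2% at 50 to 500 RPKM, beside 30.5% of all. At 500 RPKM or more the share was 61.0% of 41 contigs, beside 60.8% of all 148. The share of contigs higher in heat that submergence raised varied with abundance. It was read beside all contigs of the same abundance other than 903 with at least 5 RPKM in submergence and under 0.5 RPKM in each other group, which were too low in heat and drought to differ 2-fold. Submergence raised 28.5% of the contigs higher in heat at 5 to 50 RPKM, beside 10.97% of all, and 35.7% at 50 to 500 RPKM, beside 10.6% of all. Under 5 RPKM the share was 21.5%, beside 22.2% of all, or 29.8% with the 903 included. The shares lowered by submergence among all contigs, given above, include the 903. Without the 903, submergence lowered 11.09% of all contigs under 5 RPKM. At 500 RPKM or more submergence lowered 13 of the 19 contigs higher in heat and raised 3, beside 60.8% lowered and 7.43% raised of all 148. Across the 26884 contigs, which are not independent and share their libraries, Pearson's r between the heat to drought difference and the submergence change was 0.320 and Spearman's rho 0.330, and r was 0.359 without the 903.

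Salt against control shares no library with heat against drought either, and it changed few contigs of either class. Salt raised 111 of the 3182 contigs lower in heat, 3.49%, and lowered 19, 0.597%, beside 1.36% raised and 0.320% lowered over all contigs. The 111 were 30.3% of the 366 contigs raised by salt. Of the contigs higher in heat it raised 24, 1.11%, and lowered 16, 0.738%. Pearson's r between the heat to drought difference and the salt change was -0.0551 across contigs.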

How the data were processed

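Leaf RNA was sequenced in 10 libraries. Per the file headers the deposited values are RPKM, 1 column per library with 2 decimals, made by the authors. The submitters' processing notes list DESeq 1.18.0, HTSeq 0.6.1, TopHat2 2.0.12 and Bowtie2 2.2.3 with no role. No source used here gives the assembly or contig lengths, and contig sequences were not used here.

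Libraries were scaled by an unweighted trimmed mean of log ratios over all contigs (30% of ratios and 5% of levels trimmed at each end, reference drought replicate 1). The 26884 contigs with at least 1 RPKM in 2 libraries were fitted as log2(scaled RPKM + 1) in limma 3.58.1 (R 4.3.3) with a variance trend, group as the only term, all 10 libraries and 5 residual degrees of freedom. The contrast was heat minus drought, with Benjamini-Hochberg adjustment over all contigs tested. Calls required an adjusted p under 0.05, and 2-fold and 8-fold limits apply to the estimate on that scale, which understates low contigs. Levels of classes are scaled RPKM, and values per library are as deposited. Relative depth came from steps between low values. Depth and figures used matplotlib 3.10.9, pandas 2.3.3 and numpy 2.4.6 in Python 3.11.15.

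The 2 contigs higher and 2 lower with the largest differences were named, 1 per subcomponent, among those called with both heat libraries beyond both drought libraries. No more are named because the files pair no identifier with a gene, and further contigs of their subcomponents were described after their values were seen. The comparison, classes and tests were chosen with earlier results of these data known.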

Additional observations from a re-analysis of the deposited data

Results flagged for a closer look

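Heat and drought shifted 92 contigs to opposite sides of the control, each by at least 2-fold, and heat against drought was called for each of them, which opposite changes in 1 fit nearly guarantee. Of these, 77 were lowered by heat and raised by drought. Their median was 3.04 scaled RPKM in heat and 38.5 in drought, against 12.8 in the control. Submergence lowered 47 of the 77 and raised 8, where it lowered 16.0% and raised 16.5% of all contigs tested. Of all 3182 contigs lower in heat, which include the 77, it lowered 50.8% and raised 5.72%. The other 15 were raised by heat and lowered by drought. Their median was 32.7 scaled RPKM in heat and 5.32 in drought, against 13.0 in the control. Submergence raised 6 of the 15 and lowered 3, beside the same shares over all contigs. Of all 2169 contigs higher in heat, which include the 15, it raised 27.3% and lowered 9.41%. By group means alone, with no call against the control required, heat lay below and drought above the control in 79 contigs lower in heat. The reverse was seen in 16 contigs higher in heat, each mean again at least 2-fold away. Heat and drought were set against the same control libraries. No group has more than 2 libraries, so single libraries could not be examined for standing apart from their group.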

How the results depend on the processing

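The count of 18177 called contigs stayed within 1.5 times under every alternative run that tests against no difference, among them 12676 with 1 contig per subcomponent and 16477 with only the heat and drought libraries in the fit. Without each of the 10 libraries in turn, the fit called 16484 to 18071 contigs, with 2137 to 2215 at least 2-fold higher, 3167 to 3257 lower, 46 to 48 at least 8-fold higher and 243 to 263 lower. A lone library was there assumed to vary like the other groups. With 5 RPKM added, 934 were at least 2-fold higher and 1806 lower, and 12 and 83 at 8-fold. With 0.1 RPKM added, 124 and 570 passed 8-fold. With 1 contig per subcomponent, which tests fewer contigs, 1420 were higher and 2083 lower, and 27 at least 8-fold higher. A test against 2-fold called 2957 contigs, 955 higher and 2002 lower. Upper-quartile scaling put 47.3% of the 2-fold calls on the higher side, against 40.5%. The share held by the most abundant contigs was 0.511 percentage points higher in heat for 100 contigs and -0.452 for 500, heat minus drought, and the cause was not tested. Replicate numbers were shared by number only, with a correlation of deviations of -0.0521 between heat and drought, and with the replicate block 18014 contigs were called. With scaled values, submergence raised 592 of the 2169 contigs higher in heat, 27.3%, beside 16.5% of all contigs. With values as deposited it raised 926 of 2914, 31.8%, beside 20.85% of all. For this count the alternative was chosen after seeing the data, as was leaving out the contigs abundant only under submergence. So were reading intervals over contigs present in the 4 libraries and the test of named contigs against 2-fold. The named contigs kept their direction and call under every alternative that held them. Read totals are unknown, so no counting error could be given.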
